A study of Mus musculus with 4 samples.

Results

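The genes of glycolysis, glucose uptake and lactate export were examined in adult bone marrow mesenchymal stromal cells (MSCs). The 35 members were chosen by gene symbol from the 56980 genes of one count table, and they comprise glucose transporters, the enzymes from hexokinase to lactate dehydrogenase, monocarboxylate (lactate) transporters, the E1 alpha subunit of pyruvate dehydrogenase and the pyruvate dehydrogenase kinases. Of these, 34 symbols matched a row exactly, and Aldoa was listed in 2 rows that carry its symbol with a gene ID. The series holds a single group of 4 wild-type C57BL/6J male mice aged 14 weeks, from a colony inbred in-house, with no treatment and no contrasting genotype. From each mouse, 100 bone marrow cells that were CD45-, Ter119-, CD31-, CD51+, PDGFRa+ and Sca1- were sorted into 1 RNA-seq library, so mouse and library cannot be told apart. These are bulk values, in which fewer cells that express a gene and less RNA per cell cannot be told apart.

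Glycolysis splits glucose into pyruvate with a net yield of ATP and NADH. Glucose enters through GLUT proteins of the Slc2a family, hexokinase traps it as glucose-6-phosphate, phosphofructokinase commits it to the pathway, and lactate dehydrogenase turns pyruvate into lactate and regenerates NAD+, while monocarboxylate transporters carry lactate across the membrane. Pyruvate can instead enter mitochondria, where pyruvate dehydrogenase makes acetyl-CoA and the pyruvate dehydrogenase kinases switch that enzyme off. Most steps are served by isozymes encoded by separate genes with known tissue preferences, and bone-forming cells are known for glucose use with lactate release.

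The libraries held 22738604 to 43545349 counts, and those of mice 1 and 3 were the deeper pair. Between 16109 and 18907 genes were detected. Levels are given as TPM, that is, counts divided by the gene's exonic length and scaled to a total of 1e+06 in each library, and expressed genes are those whose median over the 4 mice exceeded 1 TPM. The sort antigens Pdgfra (30.7 to 48.2 TPM) and Itgav (12.9 to 18.1 TPM) were present in every library. The excluded antigens Ptprc and Pecam1 had at most 50 and 14 counts, whereas Ly6a, which encodes Sca1, had 120 and 144 counts in mice 2 and 4 and at most 1 in the others. The bone-forming markers Alpl, Bglap, Ibsp and Sp7 were all expressed in every mouse and summed to 122108 ± 38198 TPM (SD, n = 4), with Bglap alone at 55668 to 156730 TPM. All 6 erythroid markers had a median above 1 TPM, and their summed level was 4980 TPM in mouse 1, 35.04 in mouse 2, 1708 in mouse 3 and 358 in mouse 4. The neutrophil, macrophage and endothelial markers summed to at most 30.7, 15.99 and 0.235 TPM in any mouse.

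Of the 35 members, 26 (74.3%) were expressed, beside 22.9% of all 52125 genes with a length and 44.2% of protein-coding genes. In every single mouse, 21 members (60.0%) exceeded 1 TPM, beside 15.4% of all genes and 30.1% of protein-coding genes. The median of the members' median levels was 10.8 TPM, 18 members had a median above 10 TPM, and Ldha, Aldoa, Tpi1 and Gapdh had a median above 100 TPM. At the other end, Hk3, Aldoc and Slc16a3 had no count in any mouse, and 7 further members had no count in at least 1 mouse. The members together held 0.177 to 0.244% of the counts and summed to 1750.2, 1209, 1737 and 1142 TPM in mice 1 to 4.

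**Figure D1:**
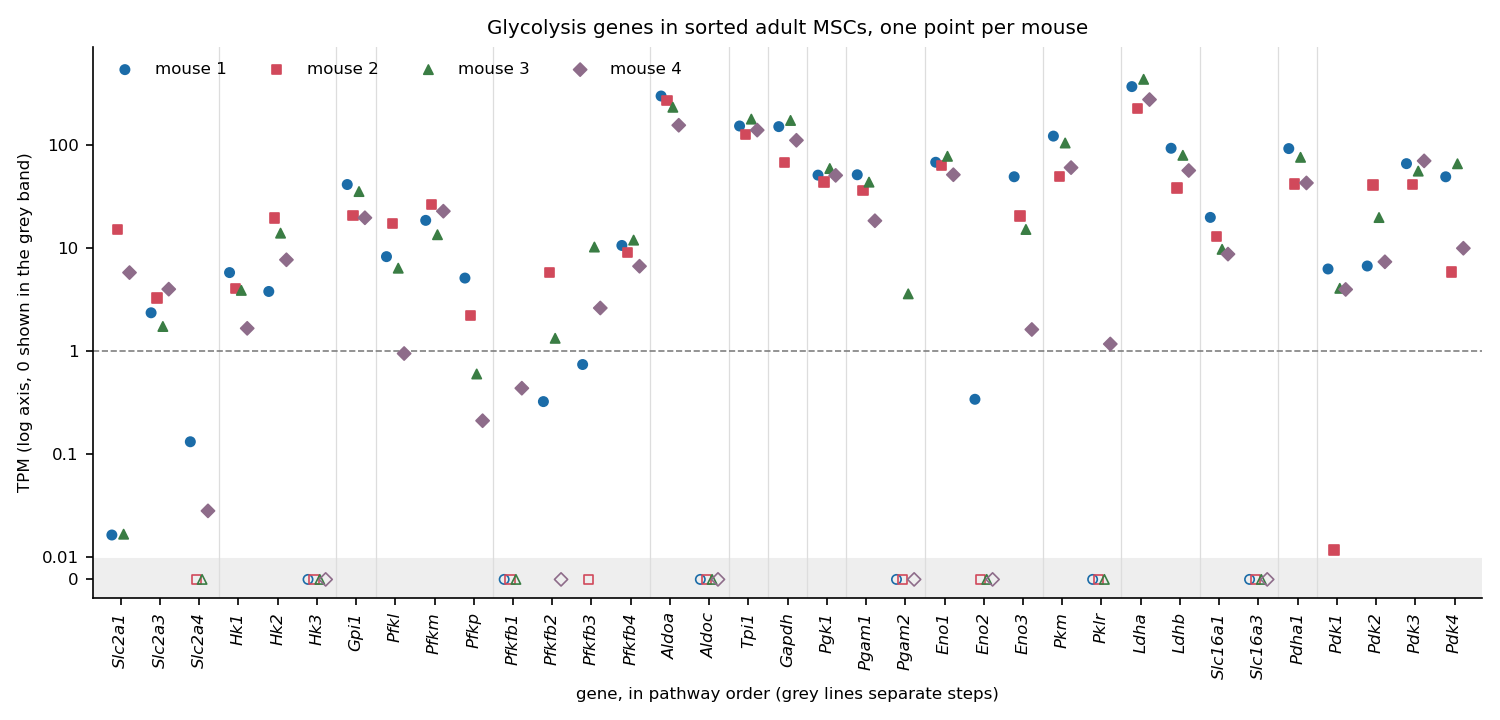
TPM (log axis) of the 35 members in each of 4 mice, in pathway order, with values of 0 in the grey band and a dashed line at 1 TPM. Gpi1, Pfkm, Aldoa, Tpi1, Gapdh, Pgk1, Pgam1, Eno1, Pkm, Ldha, Ldhb, Pdha1 and Pdk3 stay above 10 TPM in every mouse. Slc2a1, Pfkl, Pfkp, Pfkfb2, Pfkfb3 and Pdk1 run from under 1 TPM to above 5 TPM.

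Summed over isozymes, the steps differed in level. The lactate dehydrogenases were highest at 395 ± 116 TPM (SD, n = 4), followed by the aldolases at 240 ± 62.3, triosephosphate isomerase at 150 ± 22.1 and GAPDH at 126 ± 46.8 TPM. The pyruvate dehydrogenase kinases (113 ± 28.1 TPM), enolases (87.0 ± 26.7), pyruvate kinases (84.7 ± 34.6), pyruvate dehydrogenase E1 alpha (63.4 ± 25.2), phosphoglycerate kinase (51.3 ± 6.30) and phosphoglycerate mutases (38.3 ± 14.8) came next. The lowest sums were those of the phosphofructokinases (30.6 ± 11.3 TPM), glucose-6-phosphate isomerase (29.3 ± 10.8), hexokinases (15.1 ± 6.91), PFKFB enzymes (14.9 ± 6.09), monocarboxylate transporters (12.8 ± 5.03) and glucose transporters (8.09 ± 7.74). With merged exons, the entry of glucose and the steps down to phosphofructokinase thus had lower means than the splitting and payoff steps. Of the 15 neighbouring pairs in this order, 5 differed by more than the SD of their within-mouse difference, namely lactate dehydrogenases over aldolases (though in 3 of 4 mice), aldolases over triosephosphate isomerase, the kinases of pyruvate dehydrogenase over enolases, pyruvate kinases over pyruvate dehydrogenase E1 alpha, and glucose-6-phosphate isomerase over hexokinases (in 3 of 4 mice). The other 10 pairs did not differ beyond their spread. The order between steps also depends on the gene length used for scaling. Lactate dehydrogenases stayed first, aldolases second and glucose transporters last with the merged exons, the longest transcript, the principal transcript or no length at all, whereas GAPDH stood at place 4, 6, 3 and 3 in these settings. The phosphofructokinases lay above the phosphoglycerate mutases with the principal transcript (31.8 against 30.2 TPM), and without length correction they also lay above phosphoglycerate kinase (63.0 against 48.5 counts per 1e+06), with the hexokinases (41.96) above the mutases (31.2). The enolases came before the pyruvate dehydrogenase kinases in the last 3 of these settings, and after them with merged exons.

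**Figure D2:**
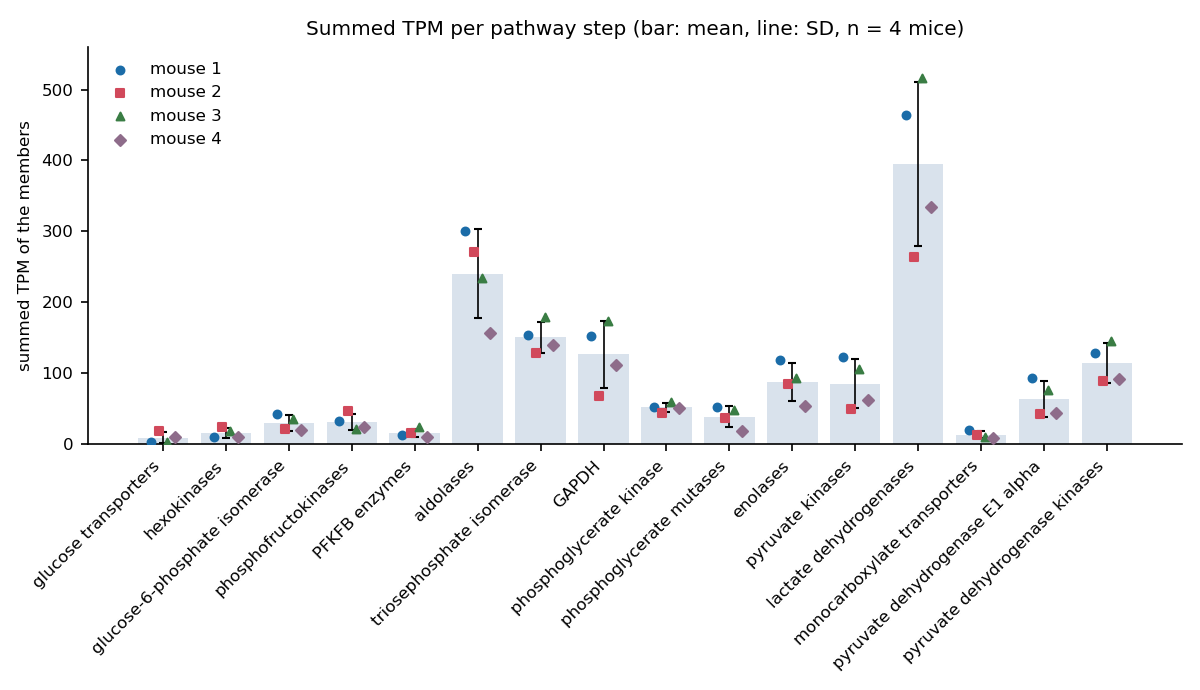
Summed TPM of the members of each pathway step; bars show the mean over 4 mice, lines the SD and points the single mice. The tallest bar is that of the lactate dehydrogenases (395 TPM) and the shortest that of the listed glucose transporters (Slc2a1, Slc2a3 and Slc2a4, 8.09 TPM).

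Isozymes were compared within each mouse as differences of log2(TPM + 1), for 29 pairs in 11 families. In 21 pairs the same isozyme was higher in 4 of 4 mice, and in 21 pairs, not all of them the same, the mean difference exceeded its SD between mice. With 4 mice the smallest two-sided p of an exact sign-flip permutation test is 0.125, so no pair could fall below 0.05. The 21 pairs with the same order in every mouse had this p, and Benjamini-Hochberg adjusted values over the 29 pairs ran from 0.173 to 1. With the longest transcript, the principal transcript and no length correction, the order was the same in every mouse for 20, 19 and 15 pairs. The comparisons below are therefore given by size, spread and number of mice.

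Glucose uptake was represented by 3 transporters. Slc2a1, which encodes the widely expressed GLUT1, had 1, 588, 1 and 209 counts in mice 1 to 4, or 0.0162, 15.1, 0.0165 and 5.77 TPM. It was thus expressed in mice 2 and 4 and near absent in mice 1 and 3, although the latter were the deeper libraries. Slc2a3, which encodes the high-affinity GLUT3, was more even, at 2.35, 3.26, 1.73 and 3.98 TPM (CV 35.1%). As a result the leading transporter changed between mice, and Slc2a1 made up 0.650, 82.2, 0.948 and 59.0% of the summed family. The mean difference Slc2a1 minus Slc2a3 was -0.20 ± 1.70 on the log2 scale (2 of 4 mice, exact permutation p = 1, adjusted p = 1), so the pair did not differ beyond its spread. With the principal transcript or without length correction Slc2a1 led in mouse 2 alone, and its share in mouse 4 was 45.9 or 41.1%. Slc2a4, the insulin-responsive GLUT4 of muscle and fat, had 8, 0, 0 and 1 counts. Among the 11 further genes of glucose transport and phosphorylation, 5 were expressed, led by Slc2a10 at 58.8, 37.8, 23.5 and 16.8 TPM and Slc2a8 at 24.2, 14.1, 21.3 and 12.2 TPM. Both of these, known mainly from intracellular membranes, exceeded Slc2a3 in each of the 4 mice.

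Hexokinases catalyse the first step. Hk2, the isozyme regulated by insulin in muscle and fat, measured 3.78, 19.5, 13.9 and 7.68 TPM, and the ubiquitous Hk1 measured 5.77, 4.07, 3.87 and 1.66 TPM. Hk2 was the leading hexokinase in mice 2, 3 and 4, with 78.3 to 82.8% of the family, and Hk1 led in mouse 1, where Hk2 held 39.6%. The difference Hk2 minus Hk1 was 1.21 ± 1.15 (3 of 4 mice, exact permutation p = 0.250, adjusted p = 0.302) and no longer exceeded its SD with the longest transcript as length (0.48 ± 1.17), with the principal transcript (0.35 ± 1.16), without length correction (0.87 ± 1.29) or without mouse 2 (0.94 ± 1.251), mouse 3 (1.08 ± 1.37) or mouse 4 (1.04 ± 1.35). Hk1 is also the hexokinase of red cells, and the erythroid markers were highest in mouse 1, where Hk1 was highest; their part in the result was not tested. Hk3, an isozyme of leukocytes, had no count in any mouse. By counting error alone this allows at most 0.0463 to 0.0788 TPM at 3 counts per library. Glucose-6-phosphate isomerase, encoded by Gpi1, stood at 41.4, 20.8, 35.4 and 19.7 TPM.

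Phosphofructokinase, the committing step, was represented by 3 subunit genes. Pfkm, the muscle-type subunit, was even between mice at 18.6, 26.4, 13.5 and 22.8 TPM. Pfkl, the liver-type subunit, measured 8.24, 17.4, 6.36 and 0.942 TPM, and Pfkp, the platelet-type subunit, 5.10, 2.22, 0.596 and 0.209 TPM. With merged exons the order Pfkm over Pfkl over Pfkp was the same in 4 of 4 mice, and Pfkm held 57.4 to 95.2% of the family. Pfkm minus Pfkl was 1.56 ± 1.39 (exact permutation p = 0.125, adjusted p = 0.173) and fell within its SD with the longest transcript (1.03 ± 1.48), the principal transcript (1.02 ± 1.46) and without length correction (0.77 ± 1.64), when Pfkm was higher in 3 of 4 mice. Pfkm minus Pfkp was larger, at 3.06 ± 1.07, and fell to 1.88 ± 1.699 without length correction. Pfkp has 13401 merged exonic bases against 4145 in its principal transcript, and in mouse 1 it passed Pfkl with the principal transcript (31.2 against 27.9% of the family) and both others without length correction (36.9%). Of 7 skeletal muscle markers none was expressed, their counts summed to 29, 0, 6 and 2, and Ckm, Myh1, Tnnt3 and Mb had 0 counts in every mouse. The 4 platelet and megakaryocyte markers summed to 123 counts in mouse 1, where Pfkp was highest, and to at most 5 in the others. Of the 123 counts, 122 were of Gp9, while Pf4 had 1 and Ppbp 0. Itga2b had 0 counts throughout. The part of platelet RNA in the level of Pfkp was not tested. In addition, 5.58% of the exonic bases of Pfkp overlap the opposite-strand gene Pitrm1, which the unstranded counts do not separate.

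The PFKFB enzymes set the level of fructose-2,6-bisphosphate, the activator of phosphofructokinase. Pfkfb4 was the steady member, at 10.6, 8.998, 11.9 and 6.65 TPM, and it led the family in 4 of 4 mice with 50.8 to 90.9% of the summed TPM. Pfkfb3, the isozyme with the strongest kinase activity, had 98, 0, 1335 and 204 counts, or 0.737, 0, 10.2 and 2.61 TPM. Pfkfb2, known from heart, had 41, 464, 166 and 0 counts, or 0.321, 5.75, 1.32 and 0 TPM. Each of these isozymes was thus absent from a library in which the other was found, Pfkfb3 from mouse 2 and Pfkfb2 from mouse 4, and Pfkfb3 minus Pfkfb2 was 0.44 ± 2.28 (3 of 4 mice, exact permutation p = 0.875, adjusted p = 0.906). The lead of Pfkfb4 over Pfkfb3 was 1.84 ± 1.44 and fell within its SD without mouse 1 (1.54 ± 1.61) or without length correction (1.83 ± 2.10), when Pfkfb3 led in mouse 3 (53.3%). Pfkfb1, the liver isozyme, had 18 counts in mouse 4 and none in the others, and 3.06% of its exonic bases overlap Apex2 on the opposite strand.

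**Figure D3:**
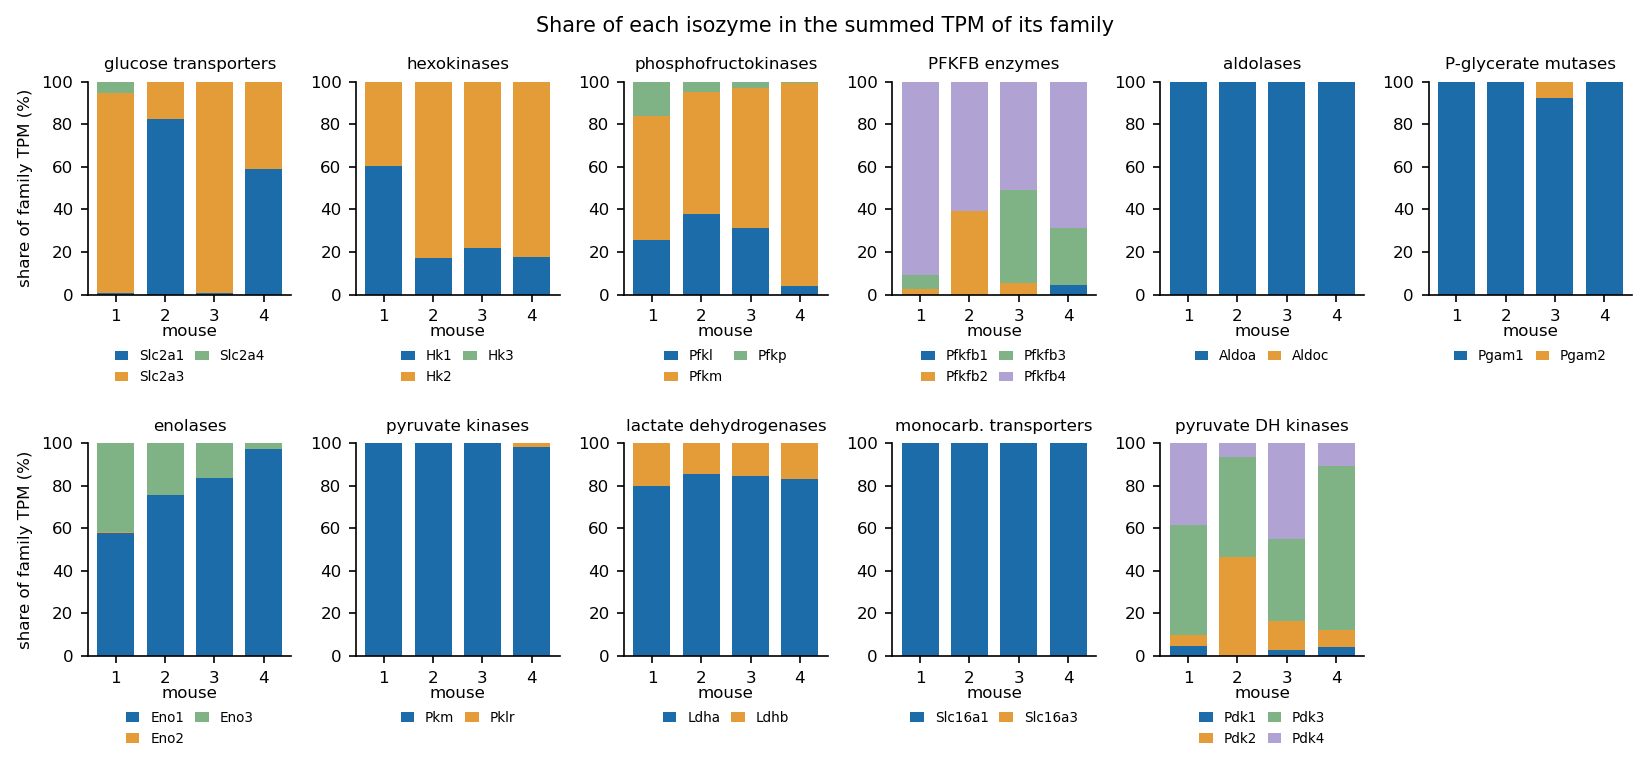
Share of each isozyme in the summed TPM of its family (percent) in mice 1 to 4, with one panel per family. Ldha, Aldoa, Pgam1, Pkm and Slc16a1 hold more than 79% in every mouse, whereas the leading glucose transporter, hexokinase and pyruvate dehydrogenase kinase changes between mice.

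The splitting and payoff steps were mostly carried by 1 gene each. Aldoa, which encodes the aldolase of most tissues and lies on chromosome 7 (GRCm38, chr7:126795234-126800751, minus strand), had 15386, 8753, 11742 and 4697 counts, or 300.4, 270.3, 233 and 156 TPM, and ranked 431 of 52125 genes. Aldoc, the brain-type aldolase, had no count, which by counting error alone allows at most 0.0523 to 0.0890 TPM. Aldoa thus held the whole family in 4 of 4 mice. The second row under the name Aldoa, a separate gene ID, had 22, 0, 0 and 0 counts and was left out. Tpi1, which interconverts the triose phosphates, was among the steadiest members at 154, 127, 179 and 140 TPM (CV 14.7%). Gapdh, the step that generates NADH and a customary reference gene, measured 151, 67.5, 174 and 112 TPM (CV 37.1%), a range of 2.57-fold between mice.

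Pgk1, the first ATP-yielding step, was the member with the lowest spread among those expressed, at 51.1, 43.8, 59.2 and 50.8 TPM (CV 12.3%). Pgam1 followed at 51.5, 36.1, 43.7 and 18.4 TPM. Its muscle counterpart Pgam2 was found in mouse 3 alone, with 52 counts or 3.58 TPM. Eno1, the ubiquitous enolase, was again even, at 68.2, 63.6, 77.9 and 51.6 TPM (CV 16.7%). Eno3, the muscle enolase, measured 49.3, 20.5, 15.1 and 1.61 TPM, a 30.5-fold range with 29 to 1508 counts. Eno3 held 41.8% of the family in mouse 1 and 3.03% in mouse 4, while the muscle markers named above were at or near 0 in every mouse. Eno1 minus Eno3 was 2.17 ± 1.63, with Eno1 higher in 4 of 4 mice (exact permutation p = 0.125, adjusted p = 0.173). These values rest on the merged length of Eno1, 5379 bases against 2027 for its longest transcript. With the longest transcript the share of Eno3 in mouse 1 was 23.2% and the difference 3.38 ± 1.59, and without length correction they were 18.9% and 3.73 ± 1.57. Eno2, the neuronal enolase, had 28 counts in mouse 1 and none in the others.

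Pyruvate kinase closes the pathway. Pkm, the non-liver gene whose PKM1 and PKM2 forms cannot be separated in counts per gene, measured 122, 49.7, 105 and 60.5 TPM. Pklr, the gene of liver and red cells, had 39 counts (1.17 TPM) in mouse 4 and none in the others. Pkm therefore held at least 98.1% of the family in each mouse, and Pkm minus Pklr was 6.04 ± 0.98. The red-cell gene Alas2 had 845, 0, 308 and 0 counts. The part of red-cell RNA in the counts of Pklr was not tested. The liver markers Alb and Apoa1 had 0 counts in all 4 mice.

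The lactate dehydrogenases were the highest step of the pathway. Ldha, the subunit that favours the reduction of pyruvate to lactate, had 21598, 8303, 24964 and 9491 counts, or 371, 225, 436 and 277 TPM, and ranked 334 of 52125 genes. Ldhb, the subunit typical of heart, measured 93.3, 38.4, 79.6 and 56.7 TPM. Both were higher in mice 1 and 3 than in mice 2 and 4, and their proportion was stable. Ldha held 79.9, 85.4, 84.6 and 83.0% of the family, and Ldha minus Ldhb was 2.30 ± 0.24, the pair with the lowest SD of the 29 (4 of 4 mice, exact permutation p = 0.125, adjusted p = 0.173). The share of Ldha was 83.2 ± 2.43% with merged exons and rose to 88.3 ± 1.82% with the longest transcript, 88.5 ± 1.78% with the principal transcript and 91.3 ± 1.40% without length correction, so its size depends on the length while its lead does not. The testis gene Ldhc and the D-lactate gene Ldhd had 0 counts throughout.

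Relative to Gapdh, Ldha was 2.45, 3.34, 2.51 and 2.49 times as high in mice 1 to 4. With the principal transcript of each gene as length, the mean ratio was 1.74 ± 0.276 in place of 2.697 ± 0.429, with the longest transcript 3.91 ± 0.622, and Ldha exceeded Gapdh in 4 of 4 mice in each setting. Aldoa exceeded Gapdh in 4 of 4 mice with merged exons, but only in 2 of 4 with the principal transcript or without length correction. Gapdh has the annotated lengths 4133 (merged exons), 3289 (longest transcript) and 1420 bases (principal transcript), which moves its level more than that of Ldha (3310, 1815 and 1766 bases). Near-identical copies of Gapdh and Ldha, given below, make these ratios more uncertain.

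The start regions of both lactate dehydrogenase genes are shown because this pair had the steadiest isozyme difference. The windows cover 250 bases before to 50 bases after the RefSeq start of transcription on GRCm38.p6, read on the strand of the gene. Capitals mark ACGTG or GCGTG on either strand, the core letters of the hypoxia response element that the factor HIF1 is known to bind. Adjoining or overlapping matches run together. The palindrome CACGTG is counted once on each strand, so there are fewer separate sites than matches where it occurs. The Ldha window lies at chr7:46845554-46845853 on the plus strand and holds 7 matches. The Ldhb window lies at chr6:142507908-142508207 on the minus strand and holds 1 match.
Ldha: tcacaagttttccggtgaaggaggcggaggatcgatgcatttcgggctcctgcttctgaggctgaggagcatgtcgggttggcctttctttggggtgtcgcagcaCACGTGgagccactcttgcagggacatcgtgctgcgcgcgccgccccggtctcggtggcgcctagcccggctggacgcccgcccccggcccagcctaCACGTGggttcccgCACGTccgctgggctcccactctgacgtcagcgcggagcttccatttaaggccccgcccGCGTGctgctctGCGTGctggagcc
Ldhb: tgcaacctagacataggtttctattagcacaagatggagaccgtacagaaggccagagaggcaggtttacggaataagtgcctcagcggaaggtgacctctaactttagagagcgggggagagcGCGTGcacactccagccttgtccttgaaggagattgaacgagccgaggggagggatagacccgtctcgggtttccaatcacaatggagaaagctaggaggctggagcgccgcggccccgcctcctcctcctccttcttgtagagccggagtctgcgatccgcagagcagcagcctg
Of the 33 members with a window (Slc2a3 and Slc2a4 had none), 24 (72.7%) held at least 1 match, beside 43.8% of all 27025 windows and 49.2% of the 17492 windows of protein-coding genes. The last 30 bases of 3 of the 4 windows shown here and with the transporters lie in a GENCODE transcript of the same gene, and those of the Ldha window do not. A match is a description of the letters and not a measured binding site.

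Lactate leaves cells through monocarboxylate transporters. Slc16a1, which encodes the widely expressed MCT1, measured 19.8, 12.98, 9.70 and 8.72 TPM and was expressed in every mouse. Slc16a3, which encodes MCT4, the exporter known from strongly glycolytic cells, had 0 counts in all 4 libraries. By counting error alone this allows at most 0.0321 to 0.0546 TPM at 3 counts per library. Slc16a1 minus Slc16a3 was 3.72 ± 0.49 (4 of 4 mice, exact permutation p = 0.125, adjusted p = 0.173). Among 6 further genes of lactate and pyruvate transport, 5 were expressed. Bsg, which encodes basigin, the chaperone that MCT1 and MCT4 need to reach the membrane, was abundant at 1273, 716, 1221 and 842 TPM, or 85.4 ± 32.3 times the level of Slc16a1. Mpc1, a subunit of the mitochondrial pyruvate carrier, stood at 106, 92.5, 71.4 and 55.9 TPM.
The start regions of both transporters are shown because one was expressed in every mouse and the other in none. The Slc16a1 window (GRCm38.p6, chr3:104638414-104638713, plus strand) holds 5 matches to the same letters, and the Slc16a3 window (chr11:120948817-120949116, plus strand) holds 2, so matches were present on both the expressed and the undetected gene.
Slc16a1: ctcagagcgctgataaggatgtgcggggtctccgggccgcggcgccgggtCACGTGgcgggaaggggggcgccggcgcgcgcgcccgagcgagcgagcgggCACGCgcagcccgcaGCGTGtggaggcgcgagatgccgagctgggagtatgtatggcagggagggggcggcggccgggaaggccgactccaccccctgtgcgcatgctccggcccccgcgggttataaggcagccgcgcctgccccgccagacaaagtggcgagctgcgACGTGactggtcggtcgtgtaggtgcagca
Slc16a3: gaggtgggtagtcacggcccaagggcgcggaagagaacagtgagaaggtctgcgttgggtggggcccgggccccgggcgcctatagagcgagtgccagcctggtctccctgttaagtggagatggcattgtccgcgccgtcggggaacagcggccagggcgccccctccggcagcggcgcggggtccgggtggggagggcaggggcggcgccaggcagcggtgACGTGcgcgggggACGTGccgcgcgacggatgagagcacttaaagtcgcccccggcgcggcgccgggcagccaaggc

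Pyruvate dehydrogenase and its kinases govern whether pyruvate enters mitochondrial oxidation. Pdha1, the catalytic E1 alpha subunit, measured 92.6, 41.8, 76.1 and 42.9 TPM. Of 8 further genes of the complex and its phosphatases, 5 were expressed, led by Pdhb (E1 beta) at 80.6, 39.1, 88.8 and 32.9 TPM and Dld (E3) at 33.4, 32.2, 51.8 and 31.3 TPM. Pdha1 and Pdhb were both higher in mice 1 and 3 than in mice 2 and 4.

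All 4 kinase genes were expressed, and they differed in how even they were. Pdk3 was high in every mouse, at 66.1, 41.4, 55.9 and 70.3 TPM (CV 22.0%). Pdk4, known as a target of fasting and fatty acid signals, measured 49.2, 5.86, 65.9 and 9.95 TPM, and Pdk2, the most widely expressed isozyme, 6.68, 41.0, 19.8 and 7.34 TPM. Pdk4 was therefore high in mice 1 and 3 and low in mice 2 and 4, whereas Pdk2 peaked in mouse 2. Pdk1, a hypoxia-induced isozyme, had 856, 1, 545 and 318 counts, or 6.25, 0.0116, 4.05 and 3.96 TPM, and was thus nearly missing from mouse 2. Pdk3 led the family in mice 1, 2 and 4 with 46.9 to 76.8% of the summed TPM, and Pdk4 led in mouse 3 with 45.2%. The lead in mouse 2 was narrow, at 41.4 TPM for Pdk3 and 41.0 for Pdk2, and the leads depended on the gene length. With the longest or the principal transcript Pdk2 led in mouse 2 (50.8%) and Pdk3 in mouse 3 (40.3%), and without length correction Pdk4 led in mice 1 and 3 (41.97 and 49.4%), Pdk2 in mouse 2 (50.6%) and Pdk3 in mouse 4 alone. Pdk3 minus Pdk4 was 1.38 ± 1.51 (3 of 4 mice, exact permutation p = 0.250, adjusted p = 0.302), within its spread, but it exceeded its SD with the longest transcript (1.62 ± 1.49), the principal transcript (1.61 ± 1.48), without mouse 1 (1.70 ± 1.67) and without mouse 3 (1.92 ± 1.30). Pdk3 minus Pdk2 was 1.92 ± 1.49 (4 of 4 mice, exact permutation p = 0.125, adjusted p = 0.173) and fell within its SD without mouse 1 (1.52 ± 1.54) or mouse 4 (1.53 ± 1.56). With the longest transcript (1.72 ± 1.4996), the principal transcript (1.71 ± 1.49) or no length correction (1.65 ± 1.51) Pdk3 was the higher in 3 of 4 mice. Pdk4 minus Pdk2 was 0.54 ± 2.31 (3 of 4 mice, exact permutation p = 0.625, adjusted p = 0.671). The 4 adipocyte markers, with 7196, 44729, 15963 and 7561 summed counts, were highest in mouse 2. Of the MSC sort antigens and niche genes, Itgav was highest in mouse 1 (18.1 TPM), but the others peaked in mouse 2. These were Cxcl12 (983, 4329, 2224 and 1079 TPM), Lepr (31.9, 120, 44.5 and 64.8 TPM) and Pdgfra (48.2 TPM in mouse 2). The members Slc2a1, Hk2, Pfkl, Pfkm, Pfkfb2 and Pdk2 were also highest in mouse 2, while every other member with counts peaked in a different mouse. The share of all genes that peak in mouse 2 was not computed, so this list of members cannot be read as a shared pattern. The part of adipocyte RNA, or of cells rich in the niche genes, in the levels of the members was not tested.

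In the neighbouring pathways, all 7 genes of the pentose phosphate pathway, which branches from glucose-6-phosphate, had a median above 1 TPM and 5 were above it in every mouse, led by Taldo1 (205, 98.2, 145 and 52.7 TPM) and Pgls (76.7, 67.0, 99.6 and 76.6 TPM). Its first enzyme, G6pdx, had 470, 565, 1968 and 0 counts. Of 10 glycogen genes, 9 had a median above 1 TPM but 4 were above it in every mouse, led by Gyg, the glycogen primer, at 54.9, 17.5, 55.7 and 15.2 TPM and Ugp2 at 7.89, 21.9, 26.6 and 22.7 TPM. Of 11 other enzymes linked to glycolysis, Pgp (37.2, 32.6, 30.4 and 37.97 TPM) and Bpgm (14.2, 4.58, 16.5 and 10.7 TPM) were expressed and 7 had 0 counts in every mouse, among them the gluconeogenic Fbp1 and Fbp2. In all, 33 of these 53 companion genes were expressed.

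The members ranged from even to uneven genes, without a clear split. For mean levels between 10 and 100 TPM, the CV between mice had a median of 38.5% over 14 members and 42.4% over all genes. Between 1 and 10 TPM it was 83.1% over 9 members and 89.6% over all genes, and between 100 and 1000 TPM it was 27.4% over 4 members and 23.5% over all genes. Thus the members as a group varied about as much as other genes of like level. Of the expressed members, Pgk1, Tpi1, Eno1, Pdk3, Pfkfb4, Aldoa, Pfkm and Ldha had CVs under 30%, whereas Slc2a1, Pfkfb3 and Pfkp exceeded 100%. A range of 10-fold or more between the highest and the lowest mouse was seen in 7 of the 26 expressed members (26.9%), beside 31.0% of all expressed genes.

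**Figure D4:**
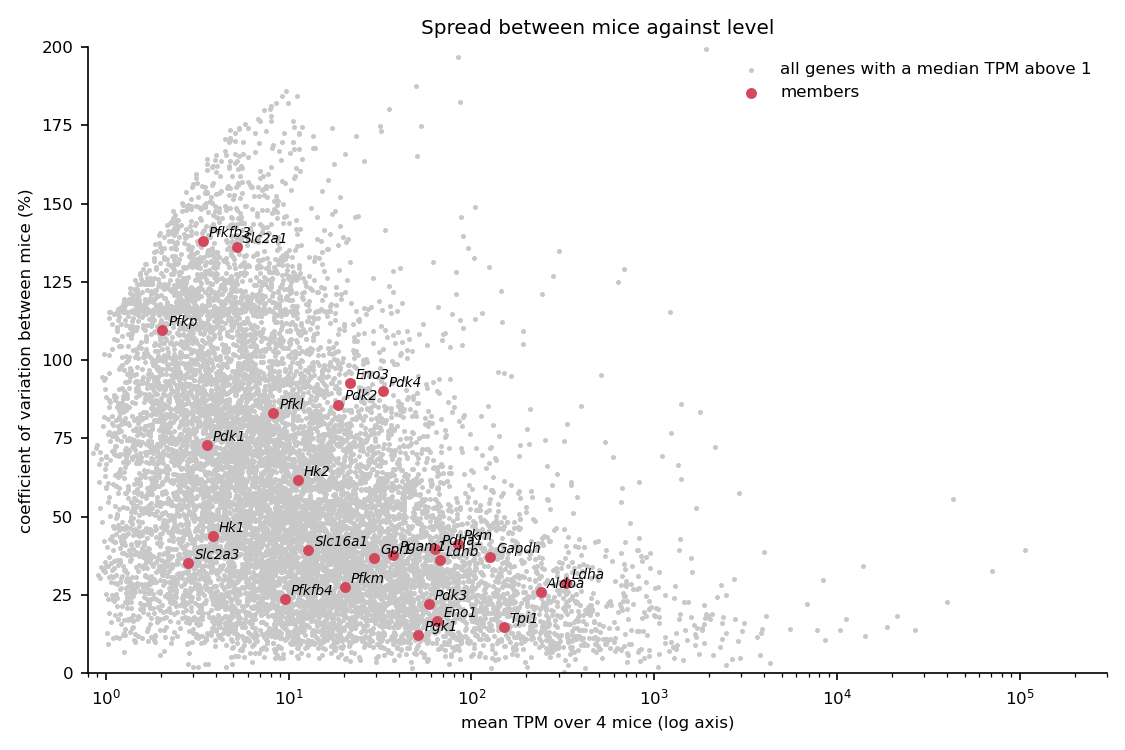
Coefficient of variation between 4 mice (percent) against mean TPM (log axis) for all genes with a median above 1 TPM (grey) and for the 26 expressed members (red). Among these members Pgk1 and Tpi1 have the lowest CVs, 12.3 and 14.7%, and Pfkfb3 and Slc2a1 the highest, 138 and 136%.

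Both deeper libraries, those of mice 1 and 3, lay above both others for 13 of the 26 expressed members, beside 27.6% of all expressed genes, and below both others for 3 (Slc2a1, Slc2a3 and Pfkm), beside 12.1%. The 13 were Gpi1, Pfkfb4, Tpi1, Gapdh, Pgk1, Pgam1, Eno1, Pkm, Ldha, Ldhb, Pdha1, Pdk1 and Pdk4, so most payoff enzymes shared this order. Across the other scalings the first number ran from 9 to 13 and the second stayed at 3; it was 9 when the 10 highest genes were left out of the scaling. The erythroid sum was also higher in mice 1 and 3, and Bglap was lower there (96604 and 55668 TPM) than in mice 2 and 4 (119827 and 156730 TPM). The part of depth, red-cell RNA or Bglap in this order was not tested.

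Several members share sequence with other genes, and pairs that map to more than 1 place were not counted. At 95% identity over at least 100 bases, near-identical copies cover 85.6% of the longest transcript of Eno1, 76.8% of Ldhb, 68.8% of Pgk1, 65.5% of Pkm, 55.0% of Ldha, 43.1% of Pgam1 and 36.1% of Gapdh, the last with copies in 144 genes. The levels of these members, and comparisons that involve them, such as Ldha or Aldoa against Gapdh, are therefore uncertain. The longest transcript of Gapdh has 3289 bases against 1420 in its principal transcript. Its percent covered by copies could thus be larger over the principal transcript, which was not computed. The copies themselves held 20.3% as many counts as Gapdh and 3.12% as many as Eno1. Slc2a1, Hk2, Pfkm, Aldoa, Slc16a1, Pdk2 and Pdk3 had no or little such overlap, at most 3.31% of the longest transcript. Exons shared with other genes made up 22.0% of the exonic bases of Pklr (Hcn3), 17.4% of those of Pfkfb2 (Gm29427, on the same strand), 16.1% of Pdha1 (Map3k15) and 15.3% of Pkm (Gm49759). The first 3 of these neighbours had 0 counts in every mouse and the last had at most 130. Reads in shared exons may go uncounted, so the low or absent counts of Pklr and Pfkfb2 are uncertain.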

How the data were processed

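Bulk RNA-seq was measured in 4 libraries of 100 sorted MSCs, 1 per mouse. Per the study's methods, alignment was done with STAR on GRCm39, keeping pairs with at least 40% of bases aligned. The authors counted unique pairs per Ensembl gene with featureCounts, with no strand option stated. The deposited values are raw counts. The members and lists were chosen with earlier results of these data known.

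Counts were divided by the merged exonic length of GENCODE M21 genes (GRCm38, matched by gene ID) and scaled to 1e+06 TPM over 52125 genes. The remaining 4855 genes had no length, and genes with a length held 96.1 to 98.2% of counts. The builds differ, so all coordinates are GRCm38. The cutoff of 1 TPM follows the study. Isozymes were compared as within-mouse differences of log2(TPM + 1) by exact permutation over sign flips (two-sided), with Benjamini-Hochberg adjustment. All 35 members are named, with the 2 highest genes of each companion list and any gene needed to qualify a member; G6pdx, Ldhc, Ldhd, Fbp1 and Fbp2 fall outside this rule or were named after their values were seen. Aldoa was taken from the row with the higher counts. Limits at 0 counts rest on 3 counts per library and cover counting error only. The scaling was tested on counts simulated from the same levels in all mice and scaled with the lengths used to make them. There, 99.9% of 50665 genes clearly above or below 1 TPM were placed correctly. This test checks the calculation alone. It does not cover variation between mice, loss of RNA from few cells or wrong lengths.

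Alternatives were the longest transcript, no length, a protein-coding denominator, no mitochondrial or ribosomal RNA, TMM (edgeR 4.0.16), DESeq2 1.42.0 size factors, other cutoffs (5 TPM, 10 counts), a pseudocount of 0.1 and leaving out each mouse. The principal transcript, the denominator without the 10 highest genes, the 10-fold range, the split by depth, the single-gene ratios and the motif search with its 4 windows were chosen after seeing the data. Copies were found with BLAST 2.17.0. Python 3.11.15, pandas 2.3.3, scipy 1.17.1 and R 4.3.3 were used.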

Additional observations from a re-analysis of the deposited data

Results flagged for a closer look

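In groups of 4, a value was set apart by Dixon's criterion at 95%, which reads the gap between an extreme mouse and its neighbour as a fraction of the range of all 4. Of 82 values compared, 9 were set apart, and several of the 9 describe the same counts. Chance at 1 in 20 would give 4.1 for independent values, but these values share counts, so the 9 cannot be read against it. A gene found in a single mouse, or a share of 100% in all other mice, has a gap of 1 by construction. For TPM, 4 genes found in a single mouse each had a gap of 1, namely Pfkfb1 (0.434 TPM in mouse 4), Pgam2 (3.58 TPM in mouse 3), Eno2 (0.338 TPM in mouse 1) and Pklr (1.17 TPM in mouse 4). Accordingly the share of Pgam1 was set apart in mouse 3, at 92.4% beside 100% in the others (gap of 1), and that of Pkm in mouse 4, at 98.1% beside 100% (gap of 1). The share of Hk2 among hexokinases was set apart in mouse 1, at 39.6% beside 78.3 to 82.8% (gap of 0.896), and so was the difference Hk2 minus Hk1, at -0.50 beside 1.62 to 2.02 (gap of 0.841). The difference Pfkm minus Pfkl was set apart in mouse 4, at 3.62 beside 0.58 to 1.08 (gap of 0.834), where Pfkl had 65 counts.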

How the results depend on the processing

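The number of expressed members was 26 and ran from 20 (median above 5 TPM) to 27 over 16 alternatives, with 21 above 1 TPM in every mouse and 24 to 26 when a mouse was left out. Of the 29 isozyme differences, 26 kept their direction under every alternative run, 14 for 25 pairs and 13 for the 4 pairs that a filter at 10 counts removed. The other 3 changed direction when a mouse was left out. Slc2a1 minus Slc2a3 ran from -0.90 to 0.31, and was 0.31 without mouse 1 and 0.21 without mouse 3. Pdk4 minus Pdk2 ran from -0.18 (without mouse 1) to 1.596. Pfkfb3 minus Pfkfb2 ran from -0.17 (without mouse 3) to 1.51, and was -0.03 without mouse 4. The share of Ldha was 88.3% with the longest transcript, 91.3% without length correction and 88.5% with the principal transcript, in place of 83.2%. The summed TPM of all steps averaged 1460, and moved to 1877 with the longest transcript, 2107 without length correction, 1878 with the principal transcript and 2288 without the 10 highest genes in the denominator.

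With 4 mice the exact test had no p under 0.125. A gene at 0 was not detected in these libraries, and its limit covers counting error alone, not RNA lost before sequencing. Lengths came from an annotation older than that used for counting, and levels between genes shift with the length chosen.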
